A study of Mus musculus with 4 samples.

Results

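Interferon-stimulated genes are the genes that cells switch on when an interferon binds its receptor. A list of 40 of them was followed here in colonic epithelial cells of mice with colitis, and 39 of the 40 had a row among the 31227 genes of the deposited count table. Members were found in the table by gene symbol (GENCODE M21 on the mouse build GRCm38). The list itself was drawn up with earlier results of these data known. No row carries the gene ID of Mx2, which that annotation calls a polymorphic pseudogene, so Mx2 was not analysed here. All 39 passed the filter on low counts and were tested.

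The libraries came from colonic epithelial cells of wild-type (WT) mice and of mice without Smad4 in the epithelium (Smad4 KO), 2 libraries each (WT replicates 1 and 3, KO replicates 1 and 2). Smad4 is the common partner of receptor-activated Smad proteins in the TGF-β and BMP pathways. All mice, aged 8 to 10 weeks, received dextran sulfate sodium (DSS, 3.5% in the drinking water), which damages the lining of the colon, for 5 days. Plain water followed until death on day 7, although the labels state a time of 5 days. Both genotypes had DSS, and undamaged colon was not analysed here. What drove the deletion, and the strain and sex, are not stated in the sources used here. Separate mice are not named for the libraries, so a p-value here reflects only the spread between these samples, which may be technical.

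Type I interferons (alpha and beta) and type III interferons (lambda) act through a complex that holds Stat2 and Irf9 and binds the interferon-stimulated response element (ISRE) in promoters such as those of the Ifit, Oas and Mx genes. Interferon gamma, the type II interferon made mainly by T cells and natural killer cells, acts through the kinases Jak1 and Jak2 and through promoters with a gamma-activated site (GAS). It strongly induces Irf1 and the immunity-related GTPases, which attack the vacuoles of intracellular microbes. Many of these genes respond to both kinds of interferon, so the names "type I typical" and "gamma typical" below describe a tendency and not a source.

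Library totals ran from 42577920 to 67927291 counts, and levels are in CPM (counts relative to the TMM-scaled size of the library). A count of 1 stood for 0.0150 to 0.0229 CPM. Smad4 itself was at 152 and 180 CPM in WT but 51.5 and 41.1 CPM in KO, in accord with the labels. Epithelial markers (Epcam, Cdh1, Vil1, Cldn7 and 4 keratins) summed to between 16030 and 16890 CPM per library, with 4 of the 8 higher and 1 lower in KO. In the test described next, 8.83% of all tested genes rose and 6.4% fell.

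Members rose in the KO libraries or did not pass the test, and none fell. Of the 39, 20 rose and 19 did not pass (edgeR quasi-likelihood F test, p adjusted by Benjamini and Hochberg over 15838 genes, threshold 0.05). In the same comparison 8.83% of all tested genes rose and 6.4% fell. No member was lower in KO at an unadjusted p under 0.05 (0 of 39), and DESeq2 and limma-voom also called 0 lower, while they called 24 and 22 higher. Both KO libraries lay above both WT libraries for 30 of the 39 members, against 31% of all tested genes. Both lay below for none, against 28.4%. The median log2 fold change was 0.57 over the members and 0.01 over all tested genes.

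**Figure D1:**
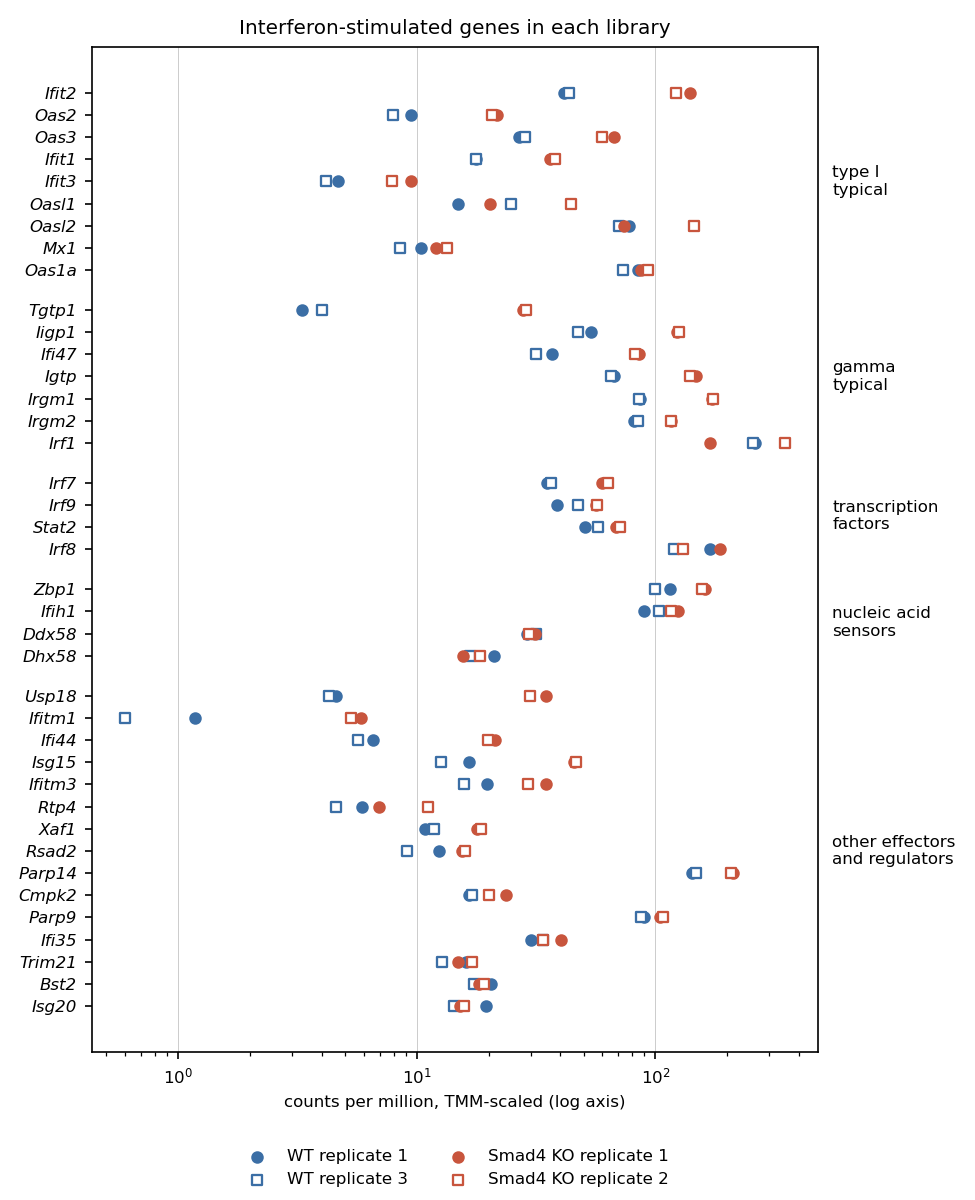
Level of each of the 39 members in every library, in CPM on a log axis, by role and, within a role, by change. Blue marks are WT and red marks Smad4 KO libraries. The red marks lie to the right of the blue ones for 30 members, and Irf1 has 1 red mark on each side of the blue pair.

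Some markers of white blood cells rose in KO as well. The background for the counts below is the 8.83% of all tested genes that rose and the 6.4% that fell. The pan-leukocyte gene Ptprc was at 6.77 and 7.13 CPM in WT and 16.4 and 19.4 CPM in KO, a 2.57-fold rise (edgeR adjusted p = 0.00408). The 15 lymphocyte markers summed to 12.6 and 15.1 CPM in WT and 33.6 and 39.6 CPM in KO, and 4 of the 10 tested rose. Of 14 macrophage and dendritic cell markers, 3 of the 11 tested rose and none fell, although 2 (Mrc1 and Cd14) were lower in both KO libraries and at an unadjusted p under 0.05, and DESeq2 and limma-voom each called 1 lower. They summed to 177 to 198 CPM in the 4 libraries, or, without Cd14, to 19.7 and 16.6 CPM in WT and 44.9 and 43.1 CPM in KO. Cd14, the highest of these, was at 159 and 181 CPM in WT and at 136 and 134 CPM in KO (log2 fold change -0.33, edgeR adjusted p = 0.0550). Of 10 neutrophil markers, 5 of the 7 tested rose (sums of 130 and 103 CPM in WT, 440 and 427 CPM in KO; without Ly6g 13.6 and 9.75, and 110 and 108 CPM), while Mpo, Camp and Elane had no count in any library. Cd4 had no count in WT, and 5 lymphocyte markers, among them the B cell genes Cd79a and Cd79b, stayed near 0 in all libraries. The 10 fibroblast markers summed to 46.6 and 50.2 CPM in WT and 82.0 and 94.2 CPM in KO (3 of 9 tested rose, among them the highest, Fbln1) and the 6 endothelial markers to 5.60 to 7.62 CPM (edgeR called 0 of 4, the highest being Vwf, with 0 at an unadjusted p under 0.05 and 0 by DESeq2). The part of these cells in the members' levels was not tested. In such bulk libraries a change in the number of cells of a type and a change in RNA per cell cannot be told apart.

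**Figure D2:**
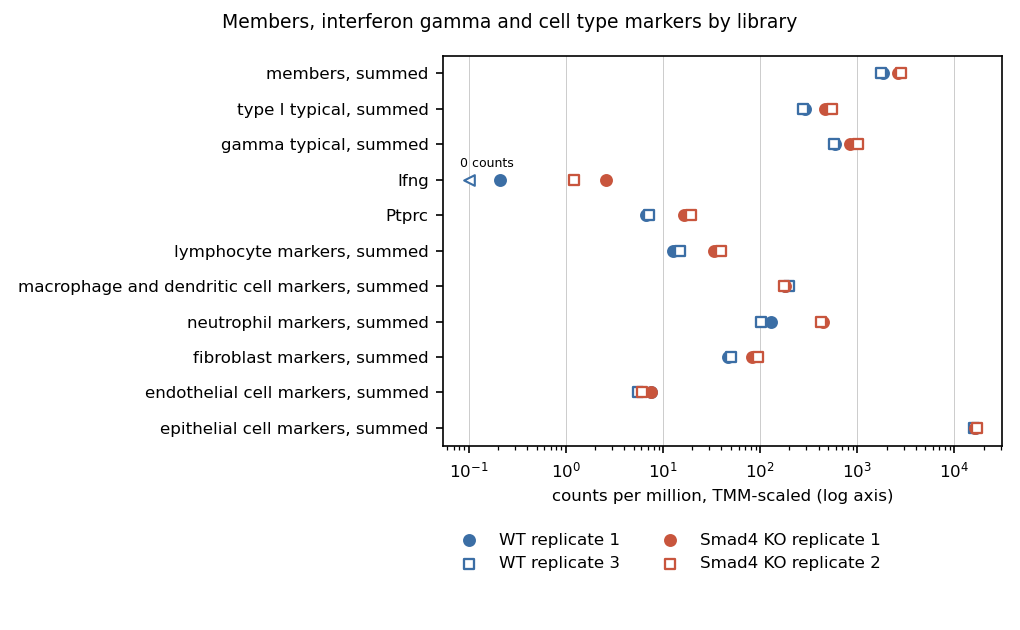
Summed level of the members, of the type I typical and gamma typical members and of marker lists, and the level of Ifng and Ptprc, in each library (CPM, log axis; an open triangle marks a library with 0 counts). Members, Ptprc and the lymphocyte, neutrophil and fibroblast sums are higher in both KO libraries, and the epithelial sum is nearly level.

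The elements through which interferons act can be read in the promoters. The stretches below are from RefSeq (GRCm38.p6), run 5′ to 3′ on the gene's own strand and lie wholly before the RefSeq transcription start. Capitals mark matches to the ISRE core (GAAA, any 2 bases, GAAA, or on the other strand TTTC, any 2 bases, TTTC) and to the GAS (TTC, any 3 bases, GAA, which reads alike on both strands). Ifit1, Oas3 and Isg15 are shown for the ISRE alone, Irf1 for the GAS alone, and 3 GTPase genes because both elements sit side by side in them.
Ifit1 (chr19:34640765-34640833, plus strand): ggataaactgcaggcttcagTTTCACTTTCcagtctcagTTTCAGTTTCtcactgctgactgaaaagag
Oas3 (chr5:120777705-120777754, minus strand): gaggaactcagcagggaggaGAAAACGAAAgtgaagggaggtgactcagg
Isg15 (chr4:156200855-156200916, minus strand): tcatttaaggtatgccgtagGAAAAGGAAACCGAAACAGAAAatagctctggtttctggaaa
Irf1 (chr11:53769904-53769952, plus strand): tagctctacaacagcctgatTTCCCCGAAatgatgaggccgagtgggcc
Igtp (chr11:58199491-58199551, plus strand): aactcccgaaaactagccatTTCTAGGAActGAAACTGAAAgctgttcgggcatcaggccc
Irgm2 (chr11:58214882-58214942, plus strand): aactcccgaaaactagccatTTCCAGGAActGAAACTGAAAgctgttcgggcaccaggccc
Tgtp1 (chr11:48992294-48992354, minus strand): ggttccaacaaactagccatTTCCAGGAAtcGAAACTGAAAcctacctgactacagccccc

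Windows from 250 bases before to 50 after the start were on hand for 30 members (not for Oas2, Mx1, Mx2, Iigp1, Dhx58, Zbp1, Usp18, Rtp4, Parp9 and Parp14). The ISRE core was in 16 of the 30, or 53.3%, against 3.99% of 27025 genes with a window. The GAS was in 11 of 30, or 36.7%, against 9.55%. Of 7 type I typical members with a window, 4 held the ISRE core and 2 the GAS, and of 6 gamma typical members 4 held each. The arrangement of Igtp, Irgm2 and Tgtp1, in which a GAS ends 2 bases before an ISRE core, was looked for in all windows after it had been seen in these 3. It occurred in 5 of the 27025 genes: these 3, Tgtp2 and Gm12185, the last 2 from the list of paralogues. Gm12185 overlaps Tgtp1, so the 5 matches may not be 5 separate elements. Matches may overlap, as a GAS and an ISRE core do in Bst2 and Ifitm3. A match is a run of letters and not a bound site.

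Risen members were found with and without the ISRE core. Of the 16 with it, 9 rose, with a median log2 fold change of 0.70. Of the 14 with a window but no such match, 6 rose, with a median of 0.63. Over all tested genes 8.83% rose, and whether the 2 groups differ was not tested. Members without a window are in neither count, among them Oas2, Iigp1, Zbp1, Usp18 and Parp14, which rose. Bst2, which holds a GAS and 2 overlapping ISRE cores, and Oas1a, which holds the same number of each, did not pass. Ifit2, with a GAS alone in its windows, rose 3.10-fold.

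**Figure D3:**
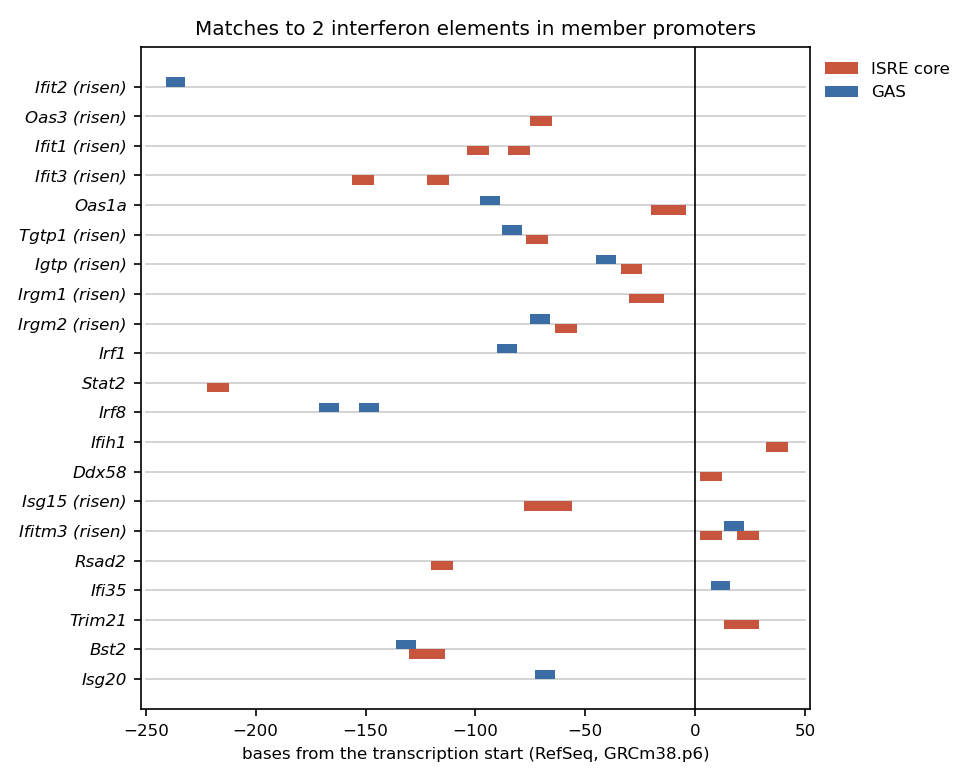
Position of each match to the ISRE core (red) and the GAS (blue) from 250 bases before to 50 after the transcription start, for the 21 members with a match, by role; a grey line is a window, and genes with more than 1 start are drawn on 1 line. Tgtp1, Igtp and Irgm2 show the adjoining pair at different distances from the start.

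Type I typical members rose in 5 of 9 cases, among them all 3 Ifit genes, of a family with proteins that bind foreign RNA and block its translation. The other 4 did not pass and all had positive log2 fold changes. The median log2 fold change of the 9 was 0.97. With the counts of near-identical paralogues added together, it was 0.70.

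Ifit2 (ENSMUSG00000045932) was at 41.4 and 43.4 CPM in WT and 140 and 123 CPM in KO. The libraries of the genotypes were far apart, and Ifit2 rose 3.10-fold (log2 change 1.63 with SE 0.0913, edgeR adjusted p = 0.000657), the largest rise of this group. Ifit1 was at 17.6 and 17.7 CPM in WT and 36.1 and 38.1 CPM in KO (2.102-fold, edgeR adjusted p = 0.00250). The WT pair of Ifit1 was almost equal, while its relative Ifit1bl1, at 291 to 340 CPM in the 4 libraries, did not pass (edgeR adjusted p = 0.118). Ifit3 was low, at 4.69 and 4.15 CPM in WT and 9.43 and 7.85 CPM in KO (1.95-fold, edgeR adjusted p = 0.0268). Of the 50-base words of its transcripts, 51.2% also occur in Ifit3b, so reads could have been split between them. With the counts of both added, the rise was 1.58-fold (edgeR adjusted p = 0.0406). The call of Ifit3 was lost without WT replicate 3, without KO replicate 1 and without KO replicate 2 (edgeR adjusted p = 0.0678, 0.163 and 0.0794). The Ifit genes lie together on chromosome 19, from Ifit2 at 34550694 to 34576419 to Ifit1 at 34640871 to 34650009.

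The oligoadenylate synthetases make the short adenylate chains that activate the RNA-cutting enzyme RNase L when double-stranded RNA is present. Oas3 (ENSMUSG00000032661) was at 26.7 and 28.4 CPM in WT and 67.2 and 59.5 CPM in KO. Oas2 was at 9.42 and 7.98 CPM in WT and 21.6 and 20.6 CPM in KO. In both genes the KO libraries stood well above the WT pair, and they rose 2.30-fold and 2.42-fold (edgeR adjusted p = 0.00204 and 0.00408). Oas1a, the highest of the 9 per exon length (41.7 CPM per kilobase in WT), was at 84.2 and 73.0 CPM in WT and 87.3 and 93.5 CPM in KO, and fell short of the threshold (log2 change 0.20 with SE 0.0952, edgeR adjusted p = 0.233). Its transcripts share 57.6% of their words with Oas1g, and the sum of both did not pass either (1.14-fold, edgeR adjusted p = 0.227). Thus the members of a gene cluster on chromosome 5 (Oas2, Oas3 and Oas1a, between 120730333 and 120907521) differed among themselves in whether they passed.

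Oasl1 and Oasl2 are related proteins, of which Oasl1 restrains the translation of Irf7. In both the KO libraries did not go together. Oasl1 was at 14.9 and 24.8 CPM in WT, 20.2 CPM in KO replicate 1 and 44.1 CPM in KO replicate 2. Oasl2 was at 77.6 and 70.6 CPM in WT, 74.2 CPM in KO replicate 1 and 145 CPM in KO replicate 2. Neither passed (edgeR adjusted p = 0.338 and 0.291). Without KO replicate 1 Oasl2 rose (log2 fold change 0.98, edgeR adjusted p = 0.0153), and without KO replicate 2 its log2 fold change was 0.00. Mx1, a GTPase that traps viral ribonucleoproteins, was at 10.5 and 8.49 CPM in WT and 12.0 and 13.3 CPM in KO, short of the threshold (log2 change 0.42 with SE 0.159, edgeR adjusted p = 0.151).

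**Figure D4:**
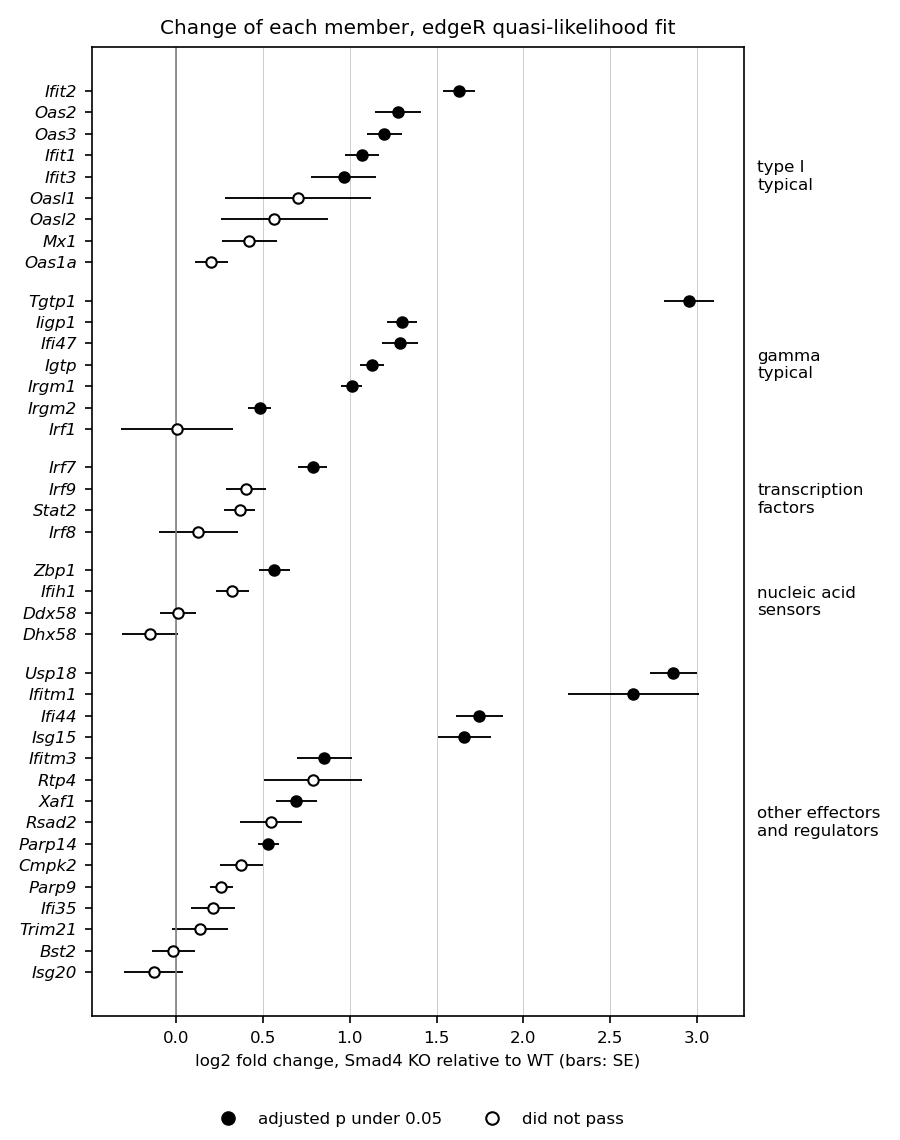
Log2 fold change of each member, KO relative to WT, with its SE, by role; filled points passed at an adjusted p under 0.05 and open points did not. The filled points are all to the right of 0; Tgtp1 and Usp18 are the farthest, and Irf1 sits at 0.01 with a wide bar.

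Gamma typical members rose in 6 of 7 cases, all of them immunity-related GTPases, and Irf1 did not pass. Their median log2 fold change was 1.13. The 8.83% of all tested genes that rose is the background for this count as for the type I typical one, and whether the 2 groups differ was not tested.

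Tgtp1 (ENSMUSG00000078922), a GTPase that loads onto parasite vacuoles, was at 3.30 and 3.99 CPM in WT and 27.8 and 28.7 CPM in KO. It rose 7.76-fold (log2 change 2.96 with SE 0.144, edgeR adjusted p = 0.000450), the largest change of the 39. Its value is uncertain, since 79.4% of its words also occur in Tgtp2, which was at 7.46 and 9.95 CPM in WT and 20.3 and 21.02 CPM in KO. With their counts added, the pair was at 10.8 and 14.0 CPM in WT and 48.1 and 49.7 CPM in KO, a 3.97-fold rise (edgeR adjusted p = 0.00151). The sum thus moved by less than Tgtp1 alone and still passed.

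Iigp1 (ENSMUSG00000054072), a GTPase that oligomerizes on such vacuoles, was at 53.8 and 47.6 CPM in WT and 124 and 126 CPM in KO. Ifi47 was at 36.9 and 31.4 CPM in WT and 85.2 and 82.1 CPM in KO. These were rises of 2.46-fold and 2.45-fold (edgeR adjusted p = 0.000954 and 0.00176), with no overlap of the genotypes. Irgm1, Irgm2 and Igtp belong to the regulatory branch of the family, which keeps the other GTPases inactive on the cell's own membranes. Igtp was at 67.0 and 64.8 CPM in WT and 148 and 140 CPM in KO (2.18-fold, edgeR adjusted p = 0.000786). Irgm1 was at 86.5 and 85.6 CPM in WT and 173 and 174 CPM in KO (2.02-fold, edgeR adjusted p = 0.000763). Both pairs were tight and far apart. Irgm2 was at 81.7 and 84.8 CPM in WT and 116 CPM in each KO library (1.40-fold, edgeR adjusted p = 0.00900), a smaller rise whose call was lost in the fits lacking KO replicate 1 or KO replicate 2 (edgeR adjusted p = 0.0782 and 0.0825). The models of Igtp and Irgm2 overlap on 1 strand of chromosome 11 (58199556 to 58207591 and 58199618 to 58222782), and 11.8% of the words of Igtp occur in Irgm2, so reads of the shared part could have gone to either.

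The 5 genes whose promoters hold the adjoining GAS and ISRE core can be set side by side. Igtp, Irgm2, Tgtp1 and Tgtp2 rose (Tgtp2 2.38-fold, edgeR adjusted p = 0.00905). Gm12185 was at 7.21 and 6.35 CPM in WT and 4.46 and 5.08 CPM in KO, short of the threshold (edgeR adjusted p = 0.139). The models of Gm12185 and Tgtp1 overlap on the minus strand (48904656 to 48992226 and 48985327 to 48994172), so their counts are uncertain. The Tgtp1 stretch shown above (48992294 to 48992354) lies close before the Gm12185 model on that strand. The match of Gm12185 may therefore be the same element as that of Tgtp1.

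Irf1 (ENSMUSG00000018899), the transcription factor that carries much of the response to interferon gamma, was the most abundant member per exon length in WT, at 65.0 CPM per kilobase of merged exons. It was at 261 and 256 CPM in WT, 170 CPM in KO replicate 1 and 349 CPM in KO replicate 2. The WT libraries were alike, and the KO libraries lay on either side of them, so no change could be called (log2 change 0.01 with SE 0.321, edgeR adjusted p = 0.994). The sign depended on the library kept: without KO replicate 2 Irf1 fell (log2 fold change -0.61, edgeR adjusted p = 0.0389), and without KO replicate 1 its log2 fold change was 0.44. It was also negative with DESeq2 size factors, library totals, the DESeq2 test and limma-voom. The GTPases of the same group did not split in this way, with KO replicate 2 at 0.947 to 1.03 times KO replicate 1.

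Of the transcription factors of the type I response, Irf7, the factor that amplifies interferon alpha production, rose. It was at 35.0 and 36.6 CPM in WT and 59.9 and 63.5 CPM in KO (1.72-fold, edgeR adjusted p = 0.00419), and its call held in the 4 fits that left out a library. Stat2 was at 50.7 and 57.4 CPM in WT and 68.3 and 71.1 CPM in KO and narrowly missed the threshold (log2 change 0.37 with SE 0.0906, edgeR adjusted p = 0.0546). It passed with DESeq2 (adjusted p = 0.0140), with limma-voom (adjusted p = 0.0412) and with either other low-count filter (edgeR adjusted p = 0.0459 and 0.0458). It did not pass with edgeR's likelihood ratio test (adjusted p = 0.0728). Nor did it with DESeq2 size factors or library totals (edgeR quasi-likelihood adjusted p = 0.0640 and 0.0887). Without a library its log2 fold change was 0.27 to 0.46. Irf9, which gives the complex with Stat2 its DNA binding, was at 38.6 and 47.3 CPM in WT and 56.6 and 56.9 CPM in KO, short of the threshold (edgeR adjusted p = 0.0838). It passed without WT replicate 3 (edgeR adjusted p = 0.0193) and with DESeq2 (adjusted p = 0.0325), but not with limma-voom (adjusted p = 0.0561). Irf8, a factor known from myeloid cells, was at 169 and 120 CPM in WT and 186 and 130 CPM in KO. In Irf8 replicate 1 was the higher library of each genotype, and the change did not pass (log2 change 0.13 with SE 0.227, edgeR adjusted p = 0.767).

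Among the sensors of foreign nucleic acid, 1 of 4 rose, against 8.83% of all tested genes. A single gene in a list of 4 says little beside that share. Zbp1, which senses left-handed double helices and can start necroptosis, was at 115 and 99.9 CPM in WT and 162 and 156 CPM in KO (1.48-fold, edgeR adjusted p = 0.0143). Its call was lost without KO replicate 1 or KO replicate 2 (edgeR adjusted p = 0.0857 and 0.0793). The RNA sensor Ddx58 (RIG-I) was nearly level, at 29.0 and 31.5 CPM in WT and 31.4 and 29.5 CPM in KO (log2 change 0.01 with SE 0.102, edgeR adjusted p = 0.965). Its relatives did not pass either: Ifih1 had a log2 fold change of 0.32 (SE 0.0948, edgeR adjusted p = 0.0842) and Dhx58 one of -0.15 (SE 0.162, edgeR adjusted p = 0.601). Ifih1 was at 89.4 and 103 CPM in WT and 125 and 116 CPM in KO. It passed without WT replicate 3 (edgeR adjusted p = 0.0372) and with DESeq2 (adjusted p = 0.0352), but not with limma-voom (adjusted p = 0.0626).

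Of the 15 other effectors and regulators, 7 rose (46.7%, against 8.83% of all tested genes), none fell (against 6.4%) and 8 did not pass. Usp18 (ENSMUSG00000030107) removes Isg15 from proteins and blocks signalling at the type I receptor, so it is a brake on the response. It was at 4.58 and 4.27 CPM in WT and 34.7 and 29.8 CPM in KO. This 7.28-fold rise (log2 change 2.86 with SE 0.136, edgeR adjusted p = 0.000427) had the smallest p of all members. Isg15, the ubiquitin-like protein that Usp18 takes off, was at 16.5 and 12.6 CPM in WT and 45.5 and 46.5 CPM in KO (3.16-fold, edgeR adjusted p = 0.00274). Per exon length it went from 19.2 to 60.9 CPM per kilobase, in the KO libraries close to Irf1 (65.2) and under Igtp (71.2). Another brake, the Jak inhibitor Socs1, which is not a member, rose too, from 17.8 and 20.02 CPM in WT to 57.3 and 57.9 CPM in KO (3.04-fold, edgeR adjusted p = 0.000853).

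Ifi44, a cytoplasmic protein of the type I response, was at 6.56 and 5.64 CPM in WT and 21.2 and 19.8 CPM in KO (3.36-fold, edgeR adjusted p = 0.00172). Ifitm1 and Ifitm3 are membrane proteins that hinder the fusion of viruses with cells. Ifitm1 was near the bottom of the range, at 1.18 and 0.596 CPM in WT and 5.86 and 5.31 CPM in KO (6.20-fold, edgeR adjusted p = 0.0106). Ifitm3 was at 19.7 and 15.7 CPM in WT and 35.0 and 29.2 CPM in KO (1.81-fold, edgeR adjusted p = 0.0245). In both genes the genotypes did not overlap, yet the calls were not firm. For Ifitm1 the call was lost in the fit lacking KO replicate 1 (edgeR adjusted p = 0.0563). Ifitm3 lost it without WT replicate 3, KO replicate 1 or KO replicate 2 (edgeR adjusted p = 0.0550, 0.116 and 0.0604). The related Ifitm2 had 51.5 to 66.9 CPM and missed the threshold (edgeR adjusted p = 0.358). Another relative, Ifitm6, known from myeloid cells, had no count in WT and 122 and 88 counts in KO, at least 56.0-fold higher (floor of 3 counts over the WT group, edgeR adjusted p = 0.00921).

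Parp14 and Xaf1 rose by less. Parp14, an ADP-ribosyltransferase, was at 142 and 148 CPM in WT and 211 and 208 CPM in KO (1.44-fold, edgeR adjusted p = 0.00533). Its neighbour and partner in the same response, Parp9, was at 89.4 and 87.4 CPM in WT and 104 and 108 CPM in KO. Parp9 fell short of the threshold (edgeR adjusted p = 0.0579), but passed with limma-voom (adjusted p = 0.0497) and DESeq2 (adjusted p = 0.0161). Xaf1, which counters inhibitors of apoptosis, was at 10.8 and 11.8 CPM in WT and 17.9 and 18.6 CPM in KO (1.62-fold, edgeR adjusted p = 0.0182). The call of Parp14 was lost without KO replicate 2 (edgeR adjusted p = 0.0528) and that of Xaf1 without KO replicate 1 or KO replicate 2 (edgeR adjusted p = 0.0917 and 0.123). Parp9 shares 7.71% of its words with the opposite strand of Dtx3l, with which it forms a complex, and without strand their shared reads cannot be told apart.

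The other 7 did not pass, and their log2 fold changes ran from -0.13 to 0.79. Rtp4, a chaperone of receptors, had 5.87 and 4.59 CPM in WT and 6.92 and 11.1 CPM in KO (log2 change 0.79 with SE 0.283, edgeR adjusted p = 0.136), with KO replicate 2 above the rest. The antiviral enzymes Rsad2 (viperin) and Cmpk2, neighbours on chromosome 12 that are known to be induced together, had log2 fold changes of 0.55 and 0.38 (edgeR adjusted p = 0.108 and 0.115). Rsad2 passed without WT replicate 1 (edgeR adjusted p = 0.0308). Ifi35, the antibody receptor Trim21, the exonuclease Isg20 and the tether of budding viruses Bst2 had log2 fold changes of 0.21, 0.14, -0.13 and -0.02. Bst2 was at 20.4 and 17.4 CPM in WT and 18.3 and 19.2 CPM in KO (SE 0.125, edgeR adjusted p = 0.955).

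Among the 38 members with a mean of at least 5 CPM, the higher KO library was at a median of 1.06 times the lower, as in 10622 tested genes of that level (1.06). In WT the median was 1.14 for the members and 1.09 for 10619 genes, a difference that was not tested. More than 1.5-fold between the KO libraries was seen for Irf1 (2.06), Oasl1 (2.18), Oasl2 (1.96) and Rtp4 (1.61), each higher in KO replicate 2. These were 4 of 38, or 10.5%, against 3.34% of all such genes. Between the WT libraries only Oasl1 passed this limit (1 of 38, or 2.63%, against 5.01%).

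**Figure D5:**
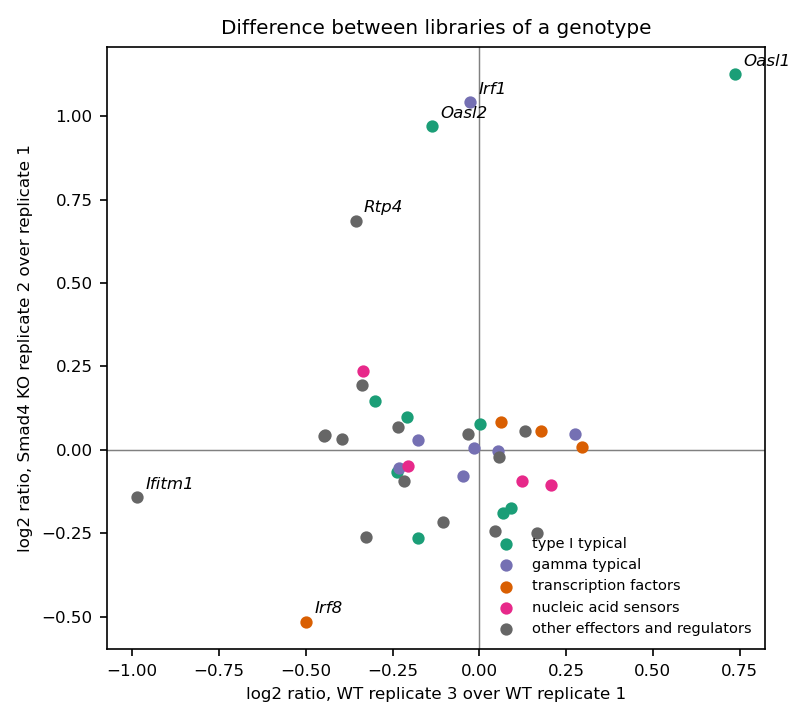
Log2 ratio between the libraries of each genotype for the 39 members, WT on the x axis and KO on the y axis, coloured by role. Most members lie near 0 on both axes; Irf1, Oasl1, Oasl2 and Rtp4 stand high on the KO axis, Irf8 is low on both, and Ifitm1, which has under 2 CPM in WT, is low on the WT axis.

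The 20 rises differed in how they stood up to leaving out a library. All 4 such fits called 13 of them: Ifit1, Ifit2, Oas2, Oas3, Igtp, Irgm1, Iigp1, Tgtp1, Ifi47, Irf7, Isg15, Usp18 and Ifi44. The other 7, Ifit3, Irgm2, Zbp1, Ifitm1, Ifitm3, Parp14 and Xaf1, lost the call in at least 1, as given above. The count of risen members was 21 without either WT library, 15 without KO replicate 1 and 14 without KO replicate 2.

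Upstream of the members, the ligands were nearly absent. Of 21 interferon genes listed, 16 (all listed interferon alpha genes among them) had no count in any library, which allows a level of up to 0.0299 CPM in WT and 0.0237 CPM in KO (3 counts over the group, counting error only). Ifnb1 had 4 counts, Ifnl2 had 8 and Ifnl3 had 2, all in KO replicate 2. Ifnk had 7 counts in WT replicate 3 and 5 in KO replicate 1. Interferon gamma, Ifng, had 12 and 0 counts in WT and 155 and 82 in KO (0.212 and 0 CPM, then 2.58 and 1.23 CPM). Both KO libraries were above WT, and the change did not pass (log2 change 4.05 with SE 1.13, edgeR quasi-likelihood adjusted p = 0.0754). DESeq2 and edgeR's likelihood ratio test called it higher, and limma-voom did not.

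Receptors and signal carriers were present in all libraries. Of 14 listed, 3 rose (21.4%, against 8.83% of all tested genes), none fell (against 6.4%) and 11 did not pass. Of the 14, 1 was lower at an unadjusted p under 0.05, and DESeq2 called 5 higher and 0 lower. Besides Socs1, the receptor chain Ifnar2 rose from 4.50 and 3.99 CPM to 8.08 and 10.3 CPM (2.17-fold, edgeR adjusted p = 0.0211) and the kinase Jak2 from 97.6 and 99.8 CPM to 134 and 130 CPM (1.34-fold, edgeR adjusted p = 0.0133). The gamma receptor chain Ifngr2 had 122 and 118 CPM in WT and 147 and 139 CPM in KO (edgeR adjusted p = 0.0676). Of 14 genes that lead to interferon production, 1 rose and 1 fell, or 7.14% each way, which is near the 8.83% and 6.4% of all tested genes. These were the adaptors Myd88 and Mavs. The adaptor Mavs, through which Ddx58 and Ifih1 signal, fell from 74.5 and 85.1 CPM to 55.3 and 52.8 CPM (log2 fold change -0.56, edgeR adjusted p = 0.0165). The adaptor Myd88 rose 1.27-fold (edgeR adjusted p = 0.0457).

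Of 35 other interferon-stimulated genes that were tested, 15 rose (42.9%, against 8.83% of all tested genes). The 2 that fell are a share close to the 6.4% of all tested genes that did. At an unadjusted p under 0.05 (edgeR), 6 of the 35 were lower and 18 higher in KO. DESeq2 and limma-voom each called 3 lower, and 17 and 14 higher. Trim30a rose 2.26-fold, Ifi44l, the neighbour of Ifi44, 3.80-fold, the DNA sensor family gene Ifi204 6.75-fold and Apol9a 2.12-fold (edgeR adjusted p between 0.00176 and 0.00599). Those that fell were Ifi27 and Helz2, named after their values were seen (log2 fold changes -0.65 and -0.44, edgeR adjusted p = 0.0329 and 0.0418). Of 14 tested paralogues of the members, 5 rose (35.7%, against 8.83% of all tested genes) and none fell (against 6.4%). Among these paralogues 1 was lower at an unadjusted p under 0.05, and 0 by DESeq2 and limma-voom. Relatives of Iigp1 on chromosome 18, F830016B08Rik and Gm4951, rose 5.73-fold and 4.74-fold (edgeR adjusted p = 0.00230 and 0.00319).

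Of 12 other gamma typical genes, 8 rose (66.7%, against 8.83% of all tested genes), 1 fell and 3 did not pass. Over all tested genes 6.4% fell, so a single fallen gene in a list of this size is near that share. Ido1, which breaks down tryptophan, rose from 52.8 and 51.1 CPM to 459 and 463 CPM and Gbp2, a guanylate-binding GTPase, from 139 and 133 CPM to 462 and 452 CPM (8.88-fold and 3.36-fold, edgeR adjusted p = 4.92e-05 and 0.000197). Cd274 (8.97-fold) and Cxcl10 (3.56-fold) rose as well (edgeR adjusted p = 0.000197 and 0.00150). The gene that fell was Ciita, the switch of MHC class II genes, named after its values were seen, from 19.1 and 18.3 CPM to 12.1 and 12.3 CPM (log2 fold change -0.62, edgeR adjusted p = 0.0205).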

How the data were processed

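RNA sequencing counts of 4 libraries were used. The authors deposited unnormalized whole-number counts for 31227 Ensembl gene IDs. The submitters' processing notes list FastQC 0.19.7, HISAT2 2.1.0, SAMtools 1.9 and StringTie 1.3.3b with GRCm38 (mm10). Not given in the sources used here: counting tool, annotation release, strand and rule for multiply matching reads. Antisense partners therefore cannot be told apart. Columns were assigned by title. From these counts edgeR 4.0.16 (R 4.3.3) kept 15838 genes (filterByExpr) of 19618 with any count, scaled them by TMM and tested genotype by the quasi-likelihood F test. P-values were adjusted over all tested genes with a threshold of 0.05. SE is the log2 fold change over the root of F. Levels are single-library CPM. The fit was tested on simulated data.

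Members and lists were chosen with earlier results of these data known. The members that passed, and the most abundant of each role, are given by library; the up to 4 genes of smallest p are named from each pathway list. Alternatives were DESeq2 size factors, library totals, no low-count filter, at least 1 CPM in 2 libraries, the Wald test of DESeq2 1.42.0, limma-voom (limma 3.58.1), edgeR's likelihood ratio test, each library left out (the lone library is then assumed to vary like the other genotype), and, added after the data were seen, paralogue counts summed. A permutation test of 2 against 2 libraries cannot pass 0.05. Shared sequence is the percent of 50-base words of a gene's GENCODE M21 transcripts found in another gene's. Of the listed genes outside the members, 2 are counted in their lists and not reported here by name.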

Additional observations from a re-analysis of the deposited data

How the results depend on the processing

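The count of risen members was 20 to 24 in the 7 other normalizations, filters and tests and 14 to 21 without a library. The count of fallen members was 0 in these, except 1 (Irf1) without KO replicate 2, which is also the 1 fallen gamma typical member. The median log2 fold change of the type I typical members was 1.03 to 1.11 without a library, 0.97 as reported and 0.70 with paralogue counts summed, a step chosen after seeing the data. Members that had not passed changed sign as follows. The log2 fold change of Irf1 was -0.00242 with DESeq2 size factors, -0.00252 in the DESeq2 test, -0.0467 with library totals, -0.0771 with limma-voom and -0.61 to 0.44 without a library. That of Ddx58 was -0.0432 with library totals. Without a library Ddx58 ran from -0.0638 to 0.0746, Dhx58 from -0.31 to 0.0136, Isg20 from -0.33 to 0.0973, Bst2 from -0.12 to 0.0936, Irf8 from -0.15 to 0.39 and Trim21 from -0.0171 to 0.30. The causes were not tested. Library totals moved the median of all genes to -0.04. No paired analysis was possible because the genotypes share only replicate number 1. With 2 libraries per genotype, a gene that did not pass is not shown to be unchanged, and low genes such as Ifitm1 and Ifng rest on few counts.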
